A study of Sus scrofa with 13 samples.

Results

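Hatching was followed in pig (Sus scrofa) embryos that developed in vivo, by setting hatched blastocysts against blastocysts not labelled as hatched, across all genes. The latter are called unhatched here. The comparison rests on the 4 libraries whose count columns are named for these 2 groups, out of 13 libraries in the series. They are blastocyst libraries 1 and 2, hatched library 2, and a second hatched library whose column carries no replicate number and which is called the unnumbered library. The hatched and unhatched blastocysts made by in vitro fertilisation (IVF, 3 libraries each) were fitted together with them and serve as a second hatching comparison, and 3 libraries of IVF 4-cell embryos complete the series. Each library was poly(A)-selected RNA from a pool of embryos, and no genetic change or drug treatment is given for any group. No source used here gives the age of the embryos, the size of a pool, or separate dams or collection days for the libraries of a group. A p-value below thus reflects only how far these libraries lie apart, set against a spread estimated from the in vivo and IVF blastocyst libraries together. Some of that distance may be technical, and any difference in age between hatched and unhatched embryos cannot be told apart from hatching.

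A blastocyst has an outer epithelium, the trophectoderm, that will form the placenta, around a fluid-filled cavity and an inner cell mass. The inner cell mass separates into epiblast, which will form the fetus, and hypoblast, an epithelium that lines the cavity, lays down basement membrane and will form the yolk sac. Hatching is the escape of the embryo from the zona pellucida, the glycoprotein shell of the egg, through swelling of the cavity and the action of proteases. After it the pig embryo grows and elongates freely in the uterus before it attaches.

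The labelled tissue, preimplantation embryo, was checked against markers of these 3 lineages on the length-scaled TPM values that the authors deposited, used here for blastocyst libraries 1 and 2 and hatched library 2, in that order. The keratin KRT8 of the trophectoderm was at 19758, 19610 and 18280 TPM. The pluripotency factor POU5F1 was at 957, 912 and 451 TPM. The hypoblast factor GATA6 was at 43.8, 80.3 and 105 TPM. These libraries thus held transcripts of the marker shown for each of the 3 lineages. The unnumbered library did so by its counts (KRT8 at 27570, POU5F1 at 525 and GATA6 at 98.1 CPM, the scaled counts defined below). Before hatching, other markers of hypoblast and epiblast were low, GATA4 at 2.42 and 3.63 TPM, SOX17 at 1.64 and 2.91 TPM, and SOX2 as given below. In hatched library 2, GATA4 and SOX17 were at 33.1 and 63.2 TPM. The libraries held 35110201 to 38854812 counts and between 14221 and 16455 genes with a count. Log2 levels correlated across genes at 0.930 between the blastocyst libraries, at 0.949 between the hatched libraries and at 0.865 to 0.897 between the groups, as a description across genes that share these libraries. Mitochondrial messages made up 3.76% and 3.52% of the counts in the blastocyst libraries, 1.49% in the unnumbered hatched library and 6.85% in hatched library 2. Below, levels are counts after TMM scaling, per total of 1e+06 (CPM), 4 values are always in the order blastocyst 1, blastocyst 2, unnumbered hatched and hatched 2, and n is 2 libraries per group. A gene is called when its adjusted p from the quasi-likelihood test of edgeR, with Benjamini-Hochberg adjustment over all genes tested, is under 0.05. Fold changes are log2 of hatched over unhatched. The ± value after a fold change is its size over the square root of the test's F statistic, an approximate standard error. It restates the test and is unreliable where a group has almost no counts.

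Hatching in vivo went with a broad change of the transcriptome. Of 15528 genes tested, 1080 were called higher (6.96%) and 1148 lower (7.39%) after hatching, 14.3% in all. Counts of called members in the gene lists below are to be read against these shares. The median size of the log2 fold change was 1.68 among the genes called higher and 1.77 among those called lower, and 399 and 491 of them changed by over 4-fold. Genes called higher held 4.25% and 4.97% of the counts before hatching, and 11.9% and 14.4% after it. Genes called lower held 21.3% and 19.5% before, and 8.07% and 7.10% after. The share of all genes tested whose 2 groups did not overlap in CPM was 53.5%, so that non-overlap is common here even for genes without a call. Leaving out 1 library lowered the counts most for blastocyst library 1 (451 higher and 613 lower) and for hatched library 2 (555 higher and 531 lower). In each fit without 1 library, 270 of the genes called higher and 382 of those called lower kept their call, and none of the called genes reversed. Fitted on the 4 in vivo libraries alone, 367 genes were called higher and 390 lower. With all 13 libraries in the fit, 37 were called higher and 64 lower, so that the higher share of the calls went from 48.5% to 36.6%. Losses of the call when 1 of the 10 libraries was left out are given beside the genes that follow.

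**Figure D1:**
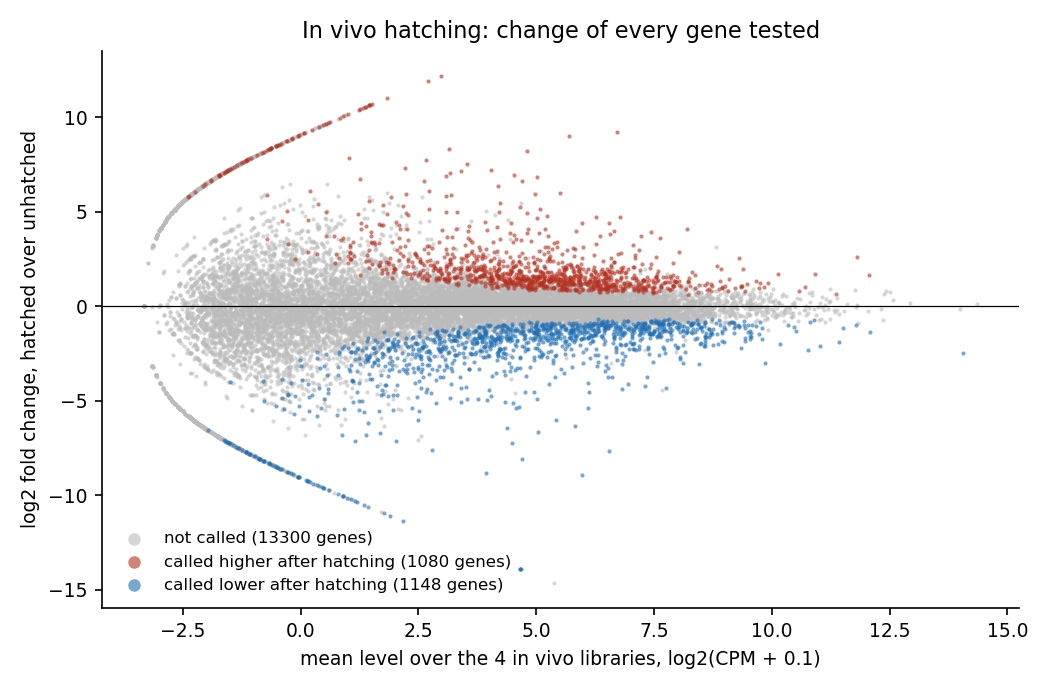
Each point is a gene tested, with its mean level over the 4 in vivo libraries on the x axis as log2(CPM + 0.1) and its log2 fold change, hatched over unhatched, on the y axis. The 1080 genes called higher are red, the 1148 called lower blue and the 13300 others grey; the curved outer bands are genes without counts in 1 of the groups, whose fitted fold changes depend on the prior count.

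The 2 hatched libraries differed in a way that followed gene length, and so did the 2 blastocyst libraries. A length (deposited counts over deposited TPM) could be given to 11624 of the genes tested, which were split into quartiles. The median log2 ratio of hatched library 2 over the unnumbered library was -0.41 in the shortest quartile and 0.35 in the longest. For blastocyst library 2 over blastocyst library 1 it was -0.23 in the shortest quartile and 0.12 in the longest. The hatching fold change itself had medians of -0.27, -0.03, 0.24 and 0.10 from the shortest to the longest quartile. In the shortest quartile 14.1% of the genes were called lower, against 6.50% in the longest. Hatched library 2 was below the unnumbered library for all 84 cytosolic ribosomal protein genes tested. The calls were compared with a fit in which each library's length trend was removed, an alternative added after the data were seen. Genes without a length took only a library-wide offset in it. That fit called 1179 genes higher and 1233 lower, of which 974 and 1053 were the same genes as in the fit reported here.

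Several hypoblast genes were higher after hatching, while GATA6 was not called. Of 15 transcription factors and other hypoblast genes tested, 6 rose and none fell, with a median log2 fold change of 2.75 against -0.01 over all genes tested. GATA4, a transcription factor of the hypoblast, was at 8.49 and 10 CPM before hatching and at 33.8 and 90.4 CPM after it. Its log2 fold change was 2.75 ± 0.42 (adjusted p = 0.00234), and 1.88 without hatched library 2. BMP2, a ligand that hypoblast secretes, was at 0.587, 0.128, 11.6 and 13.7 CPM, nearly absent before hatching and alike in both hatched libraries. It rose by 5.14 ± 0.78 (adjusted p = 0.00234), between 4.42 and 6.62 without 1 of the blastocyst libraries. SOX17, which maintains hypoblast identity, was at 2.51, 3.79, 30.6 and 76.4 CPM. It rose by 4.08 ± 0.83 (adjusted p = 0.00869), a call lost without blastocyst library 1 (adjusted p = 0.0599) or hatched library 2 (3.29, adjusted p = 0.052). PDGFRA, the receptor that marks hypoblast cells, was at 12.1, 13.9, 20.2 and 207 CPM, so that 1 hatched library carried most of the rise of 3.13 ± 0.77 (adjusted p = 0.0204). Without hatched library 2 its log2 fold change was 0.65 (adjusted p = 0.474), the call was also lost without blastocyst library 1 (0.105) or 2 (0.0655), and the rise was 4.00 without the unnumbered library. HHEX, a homeobox factor, was at 0, 0.256, 9.66 and 4.89 CPM and RSPO3, a WNT co-ligand, at 3.6, 0.333, 25.2 and 58.8 CPM. Both were called higher, HHEX losing the call without blastocyst library 1 (adjusted p = 0.0547) or the unnumbered library (0.064), and RSPO3 without blastocyst library 2 (0.0859) or hatched library 2 (0.166). Their fitted log2 fold changes also moved with the blastocyst library left out, from 4.84 to 11.08 for HHEX and from 3.54 to 6.99 for RSPO3.

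GATA6, which acts at the start of hypoblast formation, was not among them, at 96.0, 148, 98.1 and 180 CPM with a log2 fold change of 0.19 ± 0.33 (adjusted p = 0.751). The groups overlapped, and the gene was already well above GATA4 per length before hatching, at 43.8 and 80.3 TPM against 2.42 and 3.63 TPM. Summed over the list's 19 hypoblast genes, untested ones included, the levels were 246, 229, 344 and 946 CPM. Hatched library 2 was above the unnumbered library for 14 of the 15 genes tested. The number called higher was 3 without hatched library 2 and 4 without blastocyst library 2. In pools of whole embryos, more cells of a type and more RNA per cell cannot be told apart.

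Some components of basement membrane rose too. Of 28 genes of basement membrane and its assembly tested, 5 were called higher and none lower (17.9% called, median log2 fold change 1.63). A positive fold change was found for 22 of the 28. COL4A2, a chain of collagen IV, the network protein of basement membranes, was at 1.23, 1.41, 18.6 and 39 CPM and rose by 4.44 ± 0.53 (adjusted p = 0.000889). It lies on chromosome 11 (76996885 to 77161617 in the Sscrofa11.1 build) head to head with COL4A1 (76858332 to 76997409), and the annotated spans overlap at their ends, where reads cannot be assigned to 1 of them. COL4A1 was at 0, 1.64, 16.5 and 56.3 CPM and was called higher, but not without hatched library 2 (4.32, adjusted p = 0.0853); its log2 fold change was 4.50 without blastocyst library 1, 6.09 without the unnumbered library and 13.40 without blastocyst library 2, where no counts remain before hatching. COL18A1, the core protein of a basement membrane proteoglycan, went from 1.12 and 0.897 to 39.1 and 84.5 CPM, a rise of 5.94 ± 0.85 (adjusted p = 0.00188). SERPINH1, the collagen chaperone, went from 10.4 and 12.5 to 93.5 and 208 CPM, a rise of 3.72 ± 0.58 (adjusted p = 0.00267). Without hatched library 2 these 2 rises were 5.29 and 3.04, and that of COL4A2 3.83. LAMC1, a laminin chain, was at 17.8, 21.4, 35.1 and 98.3 CPM and was called at 1.77 ± 0.42 (adjusted p = 0.0178), a call lost without blastocyst library 1 (0.0942) or hatched library 2 (0.85, adjusted p = 0.164). The list had 3 calls without hatched library 2.

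Among 19 genes of lipid carriers and endocytic receptors typical of yolk sac, 4 were called higher and 2 lower (median 0.73). APOE, a lipoprotein component, was at 65.8, 59.8, 314 and 612 CPM and rose by 2.88 ± 0.56 (adjusted p = 0.00716). APOC3, another apolipoprotein, was at 5.39, 2.72, 47.1 and 90.8 CPM and rose by 4.09 ± 0.67 (adjusted p = 0.00332), or by 4.69 without blastocyst library 1. APOA1, the main protein of high-density lipoprotein, was among the 10 called genes with the highest CPM, at 1588, 451, 3992 and 8392 CPM. Its rise of 2.60 ± 0.76 (adjusted p = 0.0412) was lost without blastocyst library 2 (1.96, adjusted p = 0.151), hatched library 2 (1.99, 0.188) or IVF blastocyst library 3 (0.0577), and was 3.81 without blastocyst library 1. The lower genes were CTSV, a lysosomal protease (107, 143, 44.0 and 39.1 CPM, -1.59 ± 0.26, adjusted p = 0.00301), and DAB2, an endocytic adaptor (2204, 1649, 767 and 1016 CPM, -1.11 ± 0.28, adjusted p = 0.0244), the latter not called without blastocyst library 1 (0.155) or the unnumbered library (0.101). Of the list, 2 were called higher without hatched library 2 and 1 lower without blastocyst library 1. CDH2, a cadherin of hypoblast and mesenchyme, was at 1.51, 1.31, 29.9 and 147 CPM, and VIM, the intermediate filament vimentin, at 0.168, 0.256, 8.13 and 9.15 CPM. VIM rose by 5.32 ± 0.98 (adjusted p = 0.00575), while the call of CDH2 was lost without blastocyst library 1 (0.0598) or hatched library 2 (4.42, adjusted p = 0.0943), and its rise was 6.71 without the unnumbered library.

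**Figure D2:**
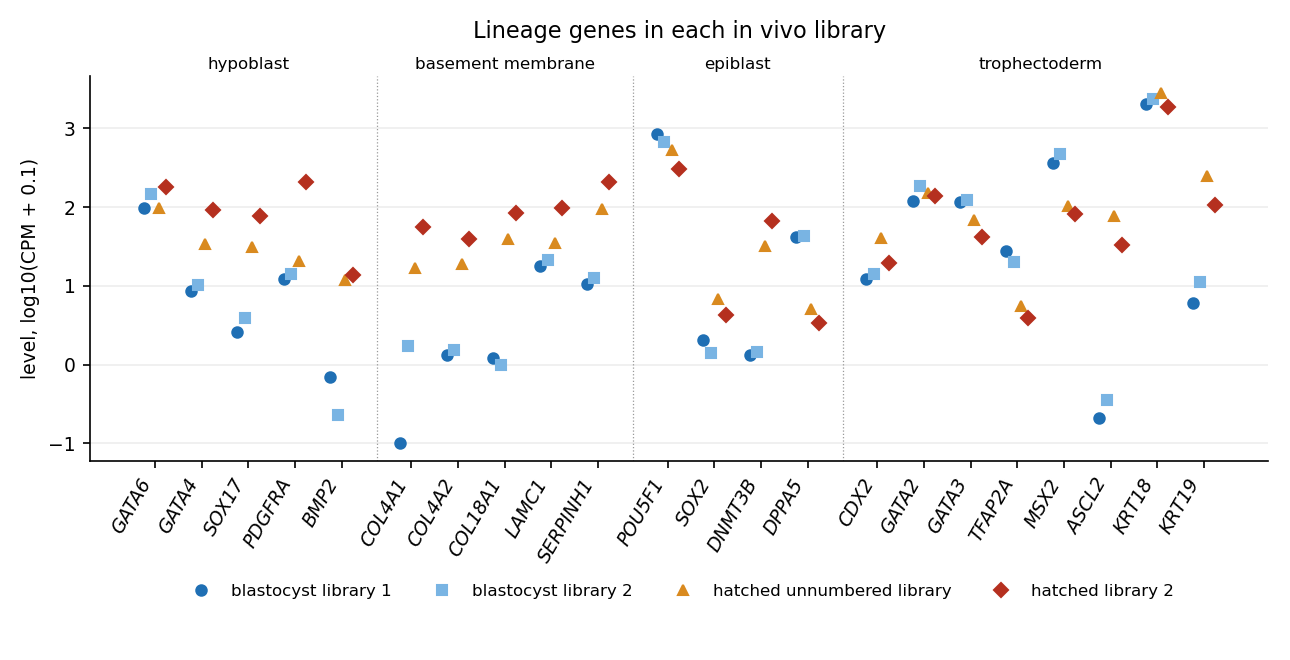
The level of each named gene on the y axis, as log10(CPM + 0.1), in each of the 4 in vivo libraries (blue, blastocyst; orange and red, hatched), grouped by lineage on the x axis. GATA4, SOX17, BMP2, the collagens and DNMT3B stand higher in both hatched libraries, DPPA5, TFAP2A and MSX2 lower, and PDGFRA high in hatched library 2 alone at 207 CPM.

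Genes of pluripotency and the epiblast were called at near the share over all genes, 11.8% against 14.3%. Of 34 tested, 2 were higher and 2 lower (median 0.36). DNMT3B, the DNA methyltransferase of post-implantation epiblast, was at 1.23 and 1.36 CPM before and at 31.5 and 66.2 CPM after hatching, a rise of 5.23 ± 0.69 (adjusted p = 0.00126), or 4.62 without hatched library 2. DPPA5, a marker of naive pluripotency, was at 42.0 and 42.9 CPM before and at 4.96 and 3.24 CPM after, and fell by 3.37 ± 0.34 (adjusted p = 0.000369). The 2 groups were far apart for both genes. POU5F1 was at 836, 675, 525 and 305 CPM, lower in both hatched libraries but without a call (-0.86 ± 0.30, adjusted p = 0.0743). SOX2 was at 1.93, 1.31, 6.69 and 4.21 CPM without a call (1.75 ± 1.3, adjusted p = 0.391). The other members called were MYBL2, a cell cycle transcription factor (0.89 ± 0.24, adjusted p = 0.0286), lost without blastocyst library 1 (0.156) or hatched library 2 (0.112), and KLF4 (-1.85 ± 0.55, adjusted p = 0.0461), which lost its call in 7 of the fits without 1 library, each in vivo library among them. The symbol NANOG is shared by more than 1 annotated gene, so its values are uncertain and are left out. Without 1 of the in vivo libraries at least 1 member stayed called in each direction.

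Trophectoderm factors moved both ways: of 33 tested, 3 were called higher and 5 lower (median -0.26). MSX2, a homeobox factor of trophoblast, was at 361, 472, 102 and 80.9 CPM and fell by 2.19 ± 0.26 (adjusted p = 0.000889). TFAP2A, an AP-2 factor, was at 27.9, 20.2, 5.38 and 3.81 CPM and fell by 2.38 ± 0.38 (adjusted p = 0.0029). TEAD1, a partner of the Hippo effector YAP, was at 106, 105, 41.3 and 46.7 CPM and fell by 1.26 ± 0.20 (adjusted p = 0.00312). For each of them both hatched libraries lay below both blastocyst libraries. The lineage factors CDX2 (1.21 ± 0.45, adjusted p = 0.095), GATA2 (-0.06 ± 0.29, 0.923), TFAP2C (-0.26 ± 0.35, 0.679) and TEAD4 (-0.33 ± 0.26, 0.427) were not called. GATA3 was on the threshold (115, 124, 67.4 and 42.0 CPM, -1.13 ± 0.35, adjusted p = 0.05) and was not called in 7 of the fits without 1 library. The higher members ELF3 and VGLL1, at 1.89 and 2.08, lost their call without the unnumbered library (1.17 and 1.39, adjusted p = 0.137 and 0.117), where no member was called higher. ELF3 was also lost without blastocyst library 1 (0.108) and stood at 2.83 without blastocyst library 2, and VGLL1 was lost without blastocyst library 2 (0.0929) and stood at 2.95 without blastocyst library 1. Without blastocyst library 1 or hatched library 2, 3 members were called lower.

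ASCL2, an imprinted factor that maintains trophoblast progenitors and was counted with the imprinted growth genes, was at 0.112 and 0.256 CPM before hatching and at 77.8 and 33.1 CPM after it. Its rise of 8.19 ± 1.05 (adjusted p = 0.00112) was 7.45 without the unnumbered library and 8.91 without blastocyst library 2. The keratins KRT8 (0.11 ± 0.29, adjusted p = 0.853) and KRT18 (0.08 ± 0.25, 0.879), the main keratins of simple epithelium, were not called, and their groups overlapped. KRT19, a keratin of epithelium under remodelling, was at 5.92, 11, 249 and 105 CPM. It was called at 4.38 ± 1.13 (adjusted p = 0.0253), but not without blastocyst library 1 (0.135), blastocyst library 2 (0.0645) or the unnumbered library (3.64, adjusted p = 0.0684). Among 32 genes of tight and adherens junctions, 3 were called higher and 2 lower (median 0.05), 15.6% against 14.3% over all genes. PRKCI, the polarity kinase aPKC, was at 31.7, 25.5, 63.7 and 111 CPM and rose by 1.61 ± 0.31 (adjusted p = 0.0068). TJP3, a scaffold of tight junctions, was at 106, 169, 34.7 and 35.5 CPM and fell by 1.97 ± 0.29 (adjusted p = 0.00197). Without blastocyst library 1 the junction list had 1 member called higher.

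The cavity is filled by sodium transport and water flow across the trophectoderm. Of 18 genes of the sodium pump, ion exchange and aquaporins, 4 were called higher and none lower (22.2% called, median 0.74). SCNN1B, a subunit of the epithelial sodium channel, was at 0.279, 0, 16.6 and 16.7 CPM, almost absent before hatching and equal in the hatched libraries. It rose by 6.89 ± 1.06 (adjusted p = 0.00248), or by 5.88 without blastocyst library 2 and 12.30 without blastocyst library 1, where no counts remain before hatching. AQP3, an aquaporin of the trophectoderm, was at 163, 218, 205 and 220 CPM without a call (0.16 ± 0.29, adjusted p = 0.775). Leaving out blastocyst library 2 or hatched library 2 left 1 call on the list, and 2 members were called lower without the unnumbered library.

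Proteases and inhibitors that have been linked to hatching did not move as a block. Of 33 tested, 5 were called higher and 2 lower (21.2% called, median 0.59). TMPRSS2, a membrane serine protease, was at 16.7, 36.9, 238 and 132 CPM and rose by 2.79 ± 0.53 (adjusted p = 0.00652), or by 3.47 without blastocyst library 2. TMPRSS13, a protease of the same family, was at 2.29 and 5.64 CPM before hatching and without counts after it (adjusted p = 0.00247). By the group mean it was at least 49.6-fold lower, against a floor of 3 counts in each library. Each fold given here as at least a value sets a group mean against this floor, so a single library can lie closer to it. The plasminogen activator PLAU (1.79, 7.87, 26.6 and 0.598 CPM, adjusted p = 0.429) and the protease prostasin, PRSS8 (54.3, 77.1, 108 and 94.1 CPM, 0.235), were not called. PLAU had its highest and its lowest value in the 2 hatched libraries. The count of higher members was 1 without blastocyst library 1 and 3 without hatched library 2, and that of lower members 1 without blastocyst library 2 or hatched library 2. Among 15 cathepsins and cystatins, 1 was called higher and 4 lower. LGMN, a lysosomal asparaginyl protease and one of the called genes with the highest CPM, was at 2145, 2020, 7005 and 5984 CPM and rose by 1.64 ± 0.28 (adjusted p = 0.00415). CTSK, a collagen-degrading cathepsin, was at 19.4, 9.85, 2.32 and 2.87 CPM and fell by 2.49 ± 0.45 (adjusted p = 0.00522), or by 1.89 without blastocyst library 1. The cathepsin list had 2 members called lower without hatched library 2.

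Genes of steroid and estrogen synthesis were mixed, with 5 of 18 called higher and 2 lower (38.9% called, median 0.05). CYP11A1, the enzyme that turns cholesterol into pregnenolone, was at 0, 0.385, 135 and 70.7 CPM, a rise of 9.0 ± 1.88 (adjusted p = 0.0101) that was 8.09 and not called without blastocyst library 1 (0.0618), and 14.90 without blastocyst library 2, where no counts remain before hatching. HSD17B1, which makes estradiol from estrone, was at 2.26, 1.38, 101 and 29.0 CPM and rose by 5.16 ± 0.82 (adjusted p = 0.0028), or by 3.99 without the unnumbered library and 5.81 without hatched library 2. HSD17B4, a peroxisomal enzyme, was at 118, 115, 338 and 381 CPM and rose by 1.63 ± 0.20 (adjusted p = 0.000969). The steroid sulfatase STS, on the X chromosome, was at 35.2, 98, 266 and 281 CPM and rose by 2.04 ± 0.44 (adjusted p = 0.0115), or by 2.96 without blastocyst library 2. In contrast CYP19A3, a pig aromatase, was at 2.12 and 11.05 CPM before hatching and had no counts after it. CYP19A3 was at least 82.4-fold lower by the group mean (adjusted p = 0.0119), a call lost without hatched library 2. It is one of several near-identical aromatase genes in the pig, so the split of its reads is uncertain. The list had 3 members called higher without blastocyst library 1 and 0 lower without hatched library 2.

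Of 20 secreted conceptus proteins and genes of maternal recognition, 2 were called higher and 5 lower (35% called, median -0.83). PAG6, a pregnancy-associated glycoprotein, was at 1.29 and 16.5 CPM before and without counts after hatching. It was at least 111-fold lower by the group mean (adjusted p = 0.00526), a fold set mostly by blastocyst library 2. PAG6 shares sequence with its relatives, so its reads are uncertain too. UPTI, a plasmin and trypsin inhibitor of trophoblast, was at 131, 94.4, 35.3 and 27.8 CPM and fell by 1.84 ± 0.31 (adjusted p = 0.00358). LGALS3, a galectin, was at 185, 279, 63.7 and 29.3 CPM and fell by 2.32 ± 0.41 (adjusted p = 0.00502), or by 2.98 without the unnumbered library. Both hatched libraries lay below both blastocyst libraries for all 3. Of the list, 3 members were called lower without blastocyst library 1, and 1 higher without any in vivo library except blastocyst library 2. The cytokine IL6 was at 113, 55.4, 0.793 and 1.82 CPM and fell by 6.0 ± 0.65 (adjusted p = 0.000539), between 5.37 without blastocyst library 1 and 6.71 without hatched library 2. Of the 20 genes of IL6 and LIF signalling tested, IL6 and PIAS3 (2.15 ± 0.50, adjusted p = 0.0164) were the ones called, and PIAS3, an inhibitor of STAT3, lost its call without blastocyst library 1 (0.0986) or hatched library 2 (0.0838), and stood at 2.83 without blastocyst library 2.

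Sterol synthesis had the largest share of calls among the lists drawn in the plot of gene lists. Of 20 genes of the mevalonate and sterol pathway, 12 fell and none rose (median -1.47), and 19 of the 20 had a negative fold change. SQLE, the enzyme that opens the sterol branch, was at 348, 261, 15 and 30.4 CPM and fell by 3.75 ± 0.54 (adjusted p = 0.00197). MSMO1, a sterol demethylase, was at 738, 513, 61.6 and 89.1 CPM and fell by 3.05 ± 0.40 (adjusted p = 0.00116). FDFT1, which makes squalene, was at 229, 173, 28.4 and 28.0 CPM and fell by 2.83 ± 0.38 (adjusted p = 0.0014). SC5D, of the last steps, was at 315, 260, 54.0 and 44.5 CPM and fell by 2.54 ± 0.24 (adjusted p = 0.000306). The groups were apart for all of these, and the list summed to 5599, 4718, 1608 and 1403 CPM. The exception in direction was LBR (0.42 ± 0.57, adjusted p = 0.669), singled out after its values were seen. Between 9 and 12 of the list were called without any 1 in vivo library, and 11 with the length trend removed.

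Genes that sense sterol or take up cholesterol split. Of 22 tested, 2 were called higher and 2 lower (18.2% called, median 0.31). INSIG1, which holds the sterol sensor in the endoplasmic reticulum and is itself induced when sterol is low, was at 173, 193, 22.7 and 28.3 CPM and fell by 2.84 ± 0.34 (adjusted p = 0.000889). LPIN1, a lipid phosphatase, was at 4.25 and 4.51 CPM before and had no counts after hatching, at least 54.8-fold lower (adjusted p = 0.00126). SCARB1, the receptor for high-density lipoprotein, was at 5.17, 7.62, 22.7 and 67.6 CPM and rose by 2.82 ± 0.54 (adjusted p = 0.00659), or by 1.84 without hatched library 2. The list had 1 member called higher without hatched library 2 or blastocyst library 1.

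Genes around the transcription factor ATF4, which answers shortage of amino acids, were called in 1 direction: 10 of 27 fell and none rose (median -1.31). PHGDH, the first enzyme of serine synthesis, was at 229, 377, 10.5 and 21.9 CPM and fell by 4.22 ± 0.50 (adjusted p = 0.000889), or by 4.84 without hatched library 2. ASNS, asparagine synthetase, was at 456, 478, 90.5 and 43.4 CPM and fell by 2.80 ± 0.53 (adjusted p = 0.00656), a call lost without hatched library 2 (0.0531), and by 3.42 without the unnumbered library. SLC7A11, the cystine transporter, was at 59.9, 69.8, 0.708 and 0.598 CPM and fell by 6.63 ± 0.81 (adjusted p = 0.000889). It is also counted in the lists of antioxidant genes and amino acid transporters below. GDF15, a secreted stress signal, was at 17.0, 21.9, 2.61 and 2.29 CPM and fell by 2.99 ± 0.38 (adjusted p = 0.00116). ATF4 itself, looked up after these values were seen, was at 304, 438, 478 and 205 CPM without a call (-0.12 ± 0.34, adjusted p = 0.869). The count was 5 without blastocyst library 1, 5 without hatched library 2 and 13 without the unnumbered library.

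Of 25 genes of serine, folate and methionine metabolism, 7 fell and none rose (28% called, median -0.49). TYMS, thymidylate synthase, was at 498, 456, 91.5 and 90.2 CPM and fell by 2.39 ± 0.20 (adjusted p = 0.000182), with replicates close to each other on both sides. CBS, which leads homocysteine towards cysteine, was at 26.3, 55.5, 0.963 and 0 CPM and fell by 6.43 ± 1.08 (adjusted p = 0.00378), with fitted values of -5.39 without hatched library 2, -5.79 without blastocyst library 2 and -13.58 without the unnumbered library, where no counts remain after hatching. Amino acid transporters moved both ways, with 4 of 28 called in each direction. SLC7A5, a carrier of large neutral amino acids, was at 88.6, 105, 11.2 and 10 CPM and fell by 3.19 ± 0.34 (adjusted p = 0.000528). SLC43A2, another carrier of the same amino acids, was at 5.84, 8.67, 72.8 and 77.7 CPM and rose by 3.37 ± 0.40 (adjusted p = 0.000889). Replicates lay close to each other for both carriers. Without hatched library 2 the transporter list had 1 member called higher and 2 lower, and 1 and 2 were called higher without blastocyst libraries 2 and 1.

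Antioxidant genes were mostly lower where they were called. Of 39 targets of the factor NRF2, glutathione genes and other antioxidant enzymes, 16 fell and 2 rose (median -0.70). MGST1, a membrane glutathione transferase, was at 173, 147, 20.2 and 17.1 CPM and fell by 3.10 ± 0.24 (adjusted p = 0.000145). GPX1, a glutathione peroxidase, was at 248, 209, 70.8 and 60.5 CPM and fell by 1.80 ± 0.28 (adjusted p = 0.00248). TALDO1, of the pentose phosphate pathway, was at 1081, 1201, 377 and 322 CPM and fell by 1.71 ± 0.20 (adjusted p = 0.000813). The members called higher were PRDX1, a peroxiredoxin, and KEAP1, the inhibitor of NRF2, with log2 fold changes of 2.56 and 1.15; KEAP1 was not called without blastocyst library 1. FTH1, the iron store ferritin heavy chain and the called gene with the highest CPM, was at 35414, 22708, 6077 and 4282 CPM and fell by 2.49 ± 0.29 (adjusted p = 0.000813). The count of lower members was 10 without blastocyst library 1, 8 without hatched library 2 and 5 on the 4 in vivo libraries alone.

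Of 29 targets of p53, 8 fell and none rose (27.6% called, median -0.77). CDKN1A, the inhibitor p21 that halts the cell cycle, was at 187, 214, 38.5 and 10.3 CPM and fell by 3.04 ± 0.47 (adjusted p = 0.00254), between 2.37 without hatched library 2 and 4.28 without the unnumbered library. ZMAT3, an RNA-binding growth inhibitor, was at 62.2, 115, 17.8 and 29.5 CPM and fell by 1.90 ± 0.33 (adjusted p = 0.0044). FAS, a death receptor, was at 12.3, 7.79, 1.76 and 0.249 CPM and fell by 3.34 ± 0.70 (adjusted p = 0.0101), between 2.50 and 5.31 without 1 of the hatched libraries. Without blastocyst library 1 or hatched library 2, 4 members were called lower, with 5 without blastocyst library 2 and 2 on the 4 in vivo libraries alone. The levels of these 3 genes lay apart between the groups.

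Genes of the cell cycle that were called were mostly higher. Of 43 genes of DNA replication, 11 rose and 1 fell (27.9% called, median 0.56). Of 43 genes of mitosis and cyclins, 12 rose and 3 fell (34.9% called, median 0.49). MCM4, a subunit of the replicative helicase, was at 51.7, 56.8, 172 and 192 CPM and rose by 1.75 ± 0.22 (adjusted p = 0.000899). PLK1, a kinase of mitosis, was at 64.5, 56.0, 250 and 317 CPM and rose by 2.23 ± 0.27 (adjusted p = 0.000889). CCNA2, cyclin A, was at 116, 95.4, 319 and 294 CPM and rose by 1.54 ± 0.22 (adjusted p = 0.00197). Replicates lay close together in both groups for these 3. CCNE1, the G1 cyclin E, was at 14.9, 28.4, 109 and 79.5 CPM and rose by 2.12 ± 0.31 (adjusted p = 0.00208). The mitosis list's lower members were CDKN1A, CCND1 (cyclin D1) and CDC25B, a phosphatase that starts mitosis, with log2 fold changes of -3.04, -2.51 and -2.50; CCND1 and CDC25B lost their call without blastocyst library 1 or hatched library 2, leaving 1 lower member. Replication genes called higher numbered 4 without blastocyst library 1 or hatched library 2 and 6 without blastocyst library 2, and mitosis genes called higher 7 without blastocyst library 2. Fitted on the 4 in vivo libraries alone, 1 replication gene and 5 mitosis genes were called higher.

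Genes of ribosome production in the nucleolus were called in 1 direction, with 10 of 44 genes called higher and none lower (median 0.49). NCL, nucleolin, was at 14, 16.3, 134 and 58.4 CPM and rose by 2.67 ± 0.44 (adjusted p = 0.00352), or by 1.95 without the unnumbered library. NAT10, an RNA acetyltransferase of the nucleolus, was at 13.0, 13.4, 44.1 and 73.2 CPM and rose by 2.15 ± 0.31 (adjusted p = 0.00188). MYC, the growth regulator, was at 13.7, 8.79, 33.9 and 44.0 CPM and was called at 1.80 ± 0.37 (adjusted p = 0.01), just lost without blastocyst library 2 (0.0512) or hatched library 2 (0.0526). The count was 4 without blastocyst library 1, 6 without blastocyst library 2 or hatched library 2, and 4 on the 4 in vivo libraries alone. Of 84 cytosolic ribosomal protein genes, 4 were called higher and 1 lower, below the share over all genes, and none was called higher without blastocyst library 1 or the unnumbered library, against 12 with the length trend removed. Among chromatin genes, 6 of 34 rose and 2 fell (23.5% called). EZH2, the methyltransferase of Polycomb, was at 42.4, 45.4, 97.7 and 110 CPM and rose by 1.24 ± 0.22 (adjusted p = 0.00526).

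Genes of glycolysis and glucose transport that were called were all higher. Of 27 genes of glycolysis and glucose transport, 8 were called higher and none lower, while the list's median was -0.07, and 14 of the 27 had a fold change below 0. HK1, hexokinase, was at 8.49, 14.4, 61.1 and 116 CPM and rose by 2.95 ± 0.42 (adjusted p = 0.00187). PKM, pyruvate kinase, was at 204, 187, 682 and 862 CPM and rose by 1.98 ± 0.28 (adjusted p = 0.00187). PFKL, phosphofructokinase, was at 25.2, 49.7, 108 and 203 CPM and rose by 2.06 ± 0.37 (adjusted p = 0.0055). SLC2A5, the fructose transporter, was at 1.76, 6.69, 69.6 and 55.1 CPM and rose by 3.88 ± 0.62 (adjusted p = 0.0029), between 3.25 and 5.14 without 1 of the blastocyst libraries. FBP1, also called higher at 4.20, works in the opposite direction, in gluconeogenesis, and lost its call without any of the in vivo libraries except blastocyst library 2. The count was 5 without blastocyst library 1 or on the 4 in vivo libraries alone, and with the length trend removed it was 9 with a median of 0.15.

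Genes of the TCA cycle were called mostly lower, and those of oxidative phosphorylation near the share over all genes. Of 26 genes of the TCA cycle and its shuttles, 8 fell and 1 rose (median -0.39). IDH2, the mitochondrial isocitrate dehydrogenase, was at 117, 127, 20.4 and 16.1 CPM and fell by 2.75 ± 0.63 (adjusted p = 0.0158), a call lost without hatched library 2 (0.1). IDH1, its cytosolic form, was at 969, 756, 410 and 406 CPM and fell by 1.08 ± 0.22 (adjusted p = 0.00986), a call lost without blastocyst library 1 (0.0806). ACO1, the cytosolic aconitase and iron sensor, rose by 1.71. Without 1 of the in vivo libraries the count of lower members was 2 (blastocyst library 1), 3 (hatched library 2), 4 (the unnumbered library) and 5 (blastocyst library 2), and it was 1 on the 4 in vivo libraries alone. None of the 13 messages of the mitochondrial genome was called; 4 were called higher without the unnumbered library and 2 lower without hatched library 2, the libraries at 1.49% and 6.85% mitochondrial messages. Of 65 nuclear genes of oxidative phosphorylation 6 were called lower (against 7.39% over all genes) and none higher, and 11 lower without blastocyst library 2 or the unnumbered library, against 1 without blastocyst library 1 or hatched library 2. With the length trend removed, or without hatched library 2, 4 of them were called higher. Of 75 mitochondrial ribosomal proteins, 5 were called higher and 6 lower, 14.7% against 14.3% over all genes.

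**Figure D3:**
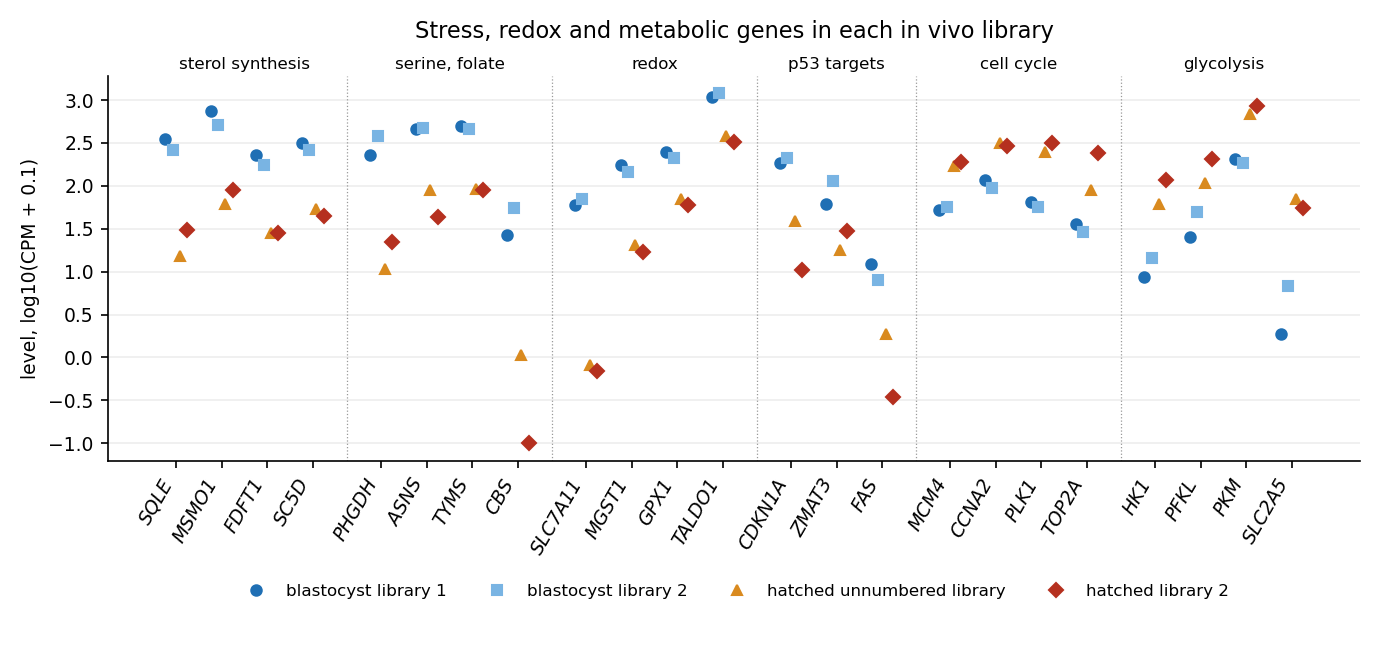
The level of each named gene on the y axis, as log10(CPM + 0.1), in each of the 4 in vivo libraries, grouped by process on the x axis. Blastocyst libraries (blue) lie above hatched libraries (orange and red) for sterol, serine and folate, redox and p53 target genes, and below them for the cell cycle and glycolysis genes shown.

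**Figure D4:**
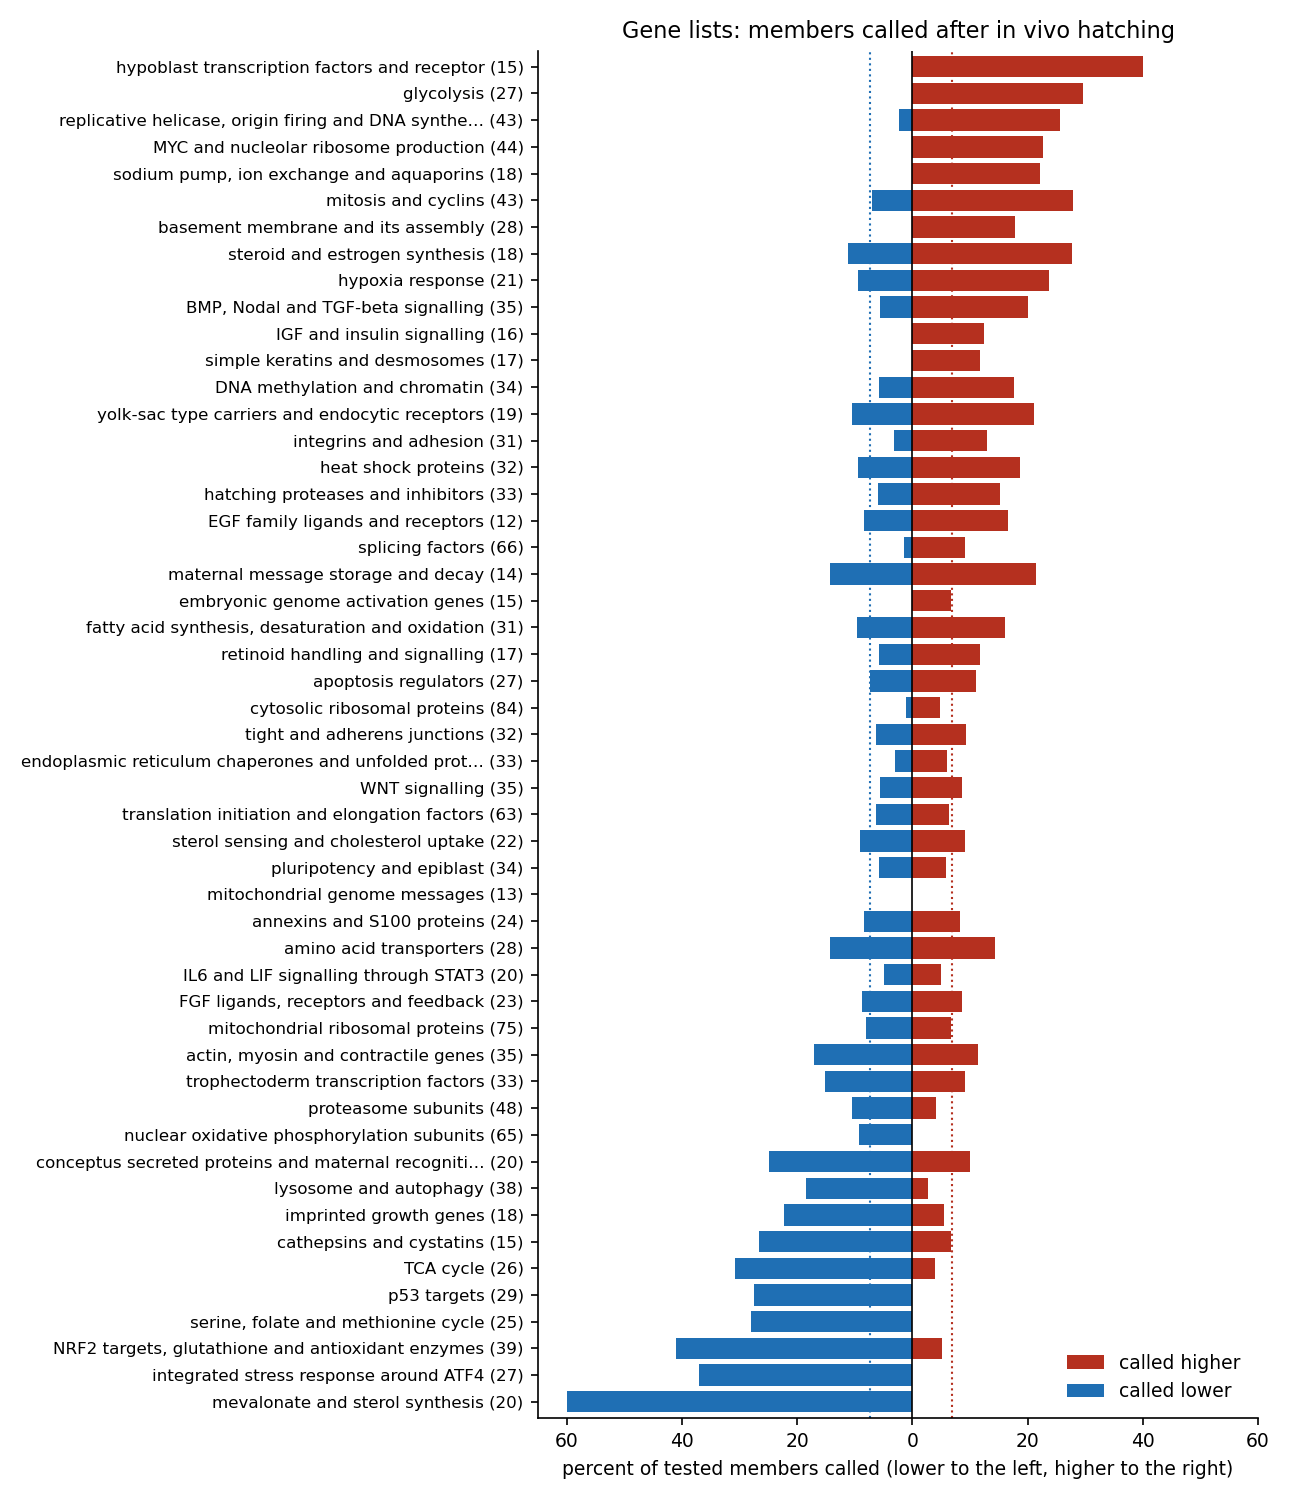
The percentage of tested members of each of 51 gene lists called higher (red, to the right) or lower (blue, to the left) after hatching in vivo, with the number of members tested in parentheses; lists with fewer than 12 tested members and markers of other cell types are not drawn. Dotted lines give the share over all genes tested, 6.96% higher and 7.39% lower.

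Signalling genes were called in both directions. Of 35 genes of BMP, Nodal and TGF-beta signalling, 7 rose and 2 fell (25.7% called, median 0.97). TGFB3, a TGF-beta ligand, was at 0.0838, 0.205, 8.76 and 9.50 CPM and rose by 5.94 ± 0.62 (adjusted p = 0.00043), or by 6.71 without blastocyst library 2. ID4, a target of BMP signalling, was at 63.5, 39.6, 9.41 and 12.9 CPM and fell by 2.21 ± 0.39 (adjusted p = 0.00458). ID3, of the same family, went the other way and rose by 1.74 (adjusted p = 0.00675). EREG, a ligand of the EGF receptor, was at 8.19, 7.13, 58.8 and 58.4 CPM and rose by 2.94 ± 0.32 (adjusted p = 0.000641). DUSP6, a phosphatase induced by FGF signalling, was at 11, 6.41, 116 and 39 CPM and rose by 3.16 ± 0.55 (adjusted p = 0.00463), or by 2.17 without the unnumbered library and 3.75 without hatched library 2. TCF7L1, a repressor of WNT targets, was at 25.9, 25.2, 5.02 and 4.76 CPM and fell by 2.39 ± 0.40 (adjusted p = 0.00358). FGFR2, the FGF receptor of trophectoderm, was at 23.8, 24.6, 2.86 and 9.75 CPM and was called lower (-1.94 ± 0.49, adjusted p = 0.0239), but not without blastocyst library 1 (0.0667) or the unnumbered library (-1.31, adjusted p = 0.0653), and at -3.06 without hatched library 2. FGF4, the epiblast ligand, was not called (adjusted p = 0.859). The BMP list had 3 members called higher without hatched library 2 and 4 without blastocyst library 1.

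The largest rises were of genes with no or almost no counts before hatching. ZAR1, an oocyte factor, was at 0, 0, 9.27 and 16.5 CPM, at least 160.0-fold higher; its call was lost without blastocyst library 1 (adjusted p = 0.0627) or hatched library 2 (0.0536). CDH17, a cadherin of intestinal epithelium, was at 0, 0, 1.25 and 29.7 CPM, at least 192-fold higher by the group mean, most of it in hatched library 2. Its call was lost without hatched library 2 (fitted log2 fold change 8.5) or blastocyst library 1 (12.2). FLRT3, an adhesion protein of visceral endoderm and other epithelia, was at 0, 0.692, 53.3 and 366 CPM and rose by 9.2 ± 1.74 (adjusted p = 0.00636), which was 7.24 without hatched library 2, 8.26 without blastocyst library 1, 10.01 without the unnumbered library and 15.93 without blastocyst library 2. SLC39A8, a zinc and manganese carrier, was at 0.251, 0, 13.3 and 32.4 CPM and rose by 7.50 ± 1.15 (adjusted p = 0.00246), which was 6.49 without blastocyst library 2, 6.73 without hatched library 2 and 12.76 without blastocyst library 1. Of the genes called higher, 70 had no counts in either blastocyst library.

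Some genes with over 50 CPM in both blastocyst libraries fell to a few CPM or less after hatching. N4BP2L1, a gene on chromosome 11 (8860777 to 8889982), was at 148, 120, 3.46 and 2.92 CPM and fell by 5.39 ± 0.32 (adjusted p = 1.29e-05). CASQ2, a calcium-binding protein of muscle, was at 85.6, 136, 1.22 and 1.52 CPM and fell by 6.33 ± 0.56 (adjusted p = 0.000186). ACTA1, skeletal muscle actin, was at 209, 160, 1.56 and 0.324 CPM and fell by 7.63 ± 1.28 (adjusted p = 0.00378), between 6.87 without hatched library 2 and 9.14 without the unnumbered library. For each, both hatched libraries held a small fraction of the blastocyst level. ACTA1 shares most of its coding sequence with other actins, so its reads are uncertain. Of the genes called lower, 72 had no counts in either hatched library. Among the 10 called genes with the highest CPM, RGN, a calcium-binding lactonase on the X chromosome, was at 5461, 3223, 1305 and 1015 CPM (-1.90 ± 0.34, adjusted p = 0.00524), and GHITM, a protein of the inner mitochondrial membrane, at 3531, 3158, 999 and 581 CPM (-2.08 ± 0.29, adjusted p = 0.00173). HSP70.2, an inducible heat shock protein whose gene lies within the annotated span of HSPA1L, was at 668, 1141, 2661 and 3244 CPM and rose by 1.71 ± 0.32 (adjusted p = 0.00646).

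Markers of other cells that could accompany embryos, or of later tissues, were looked up in the same libraries. The 14 markers of oviduct and uterine epithelium, 12 of them tested, summed to 10.2, 11.5, 12 and 33 CPM. Among them 1 was called higher (LTF, at 0.425 and 0.548 CPM after hatching, lost in each of the 10 fits without 1 library). SCGB1A1 and ACP5 were at 0 in all 4 libraries. Stroma and vessel markers summed to 22.3, 49.8, 25.3 and 64.8 CPM over 18 genes, 7 of them tested. VIM was called higher and TAGLN lower (lost without blastocyst library 2 or either hatched library), and COL1A1, LUM and KDR were at 0. The 17 blood and immune markers, 9 of them tested, summed to 166, 93.5, 25.4 and 31.8 CPM, lower after hatching. FCER1G, an immune receptor chain, made up most of that sum at 150, 76.3, 17.4 and 11.5 CPM (-2.97 ± 0.36, adjusted p = 0.000889, or -2.37 without blastocyst library 1), while HBM, S100A8 and TYROBP were at 0. Cumulus and granulosa markers summed to 1723, 1790, 953 and 1221 CPM, of which PTGS2 made up most (1697, 1768, 702 and 1034 CPM), and FSHR, LHCGR, FOXL2, NR5A1 and TNFAIP6 were at 0; the 3 members called higher, EREG, STAR and CYP11A1, are also expressed by embryos, and 1 of them was called without blastocyst library 1. STAR also lost its call without the unnumbered library (adjusted p = 0.087) or hatched library 2 (0.0582). Sperm markers summed to 129, 144, 73.2 and 146 CPM with 8 of 15 at 0, and markers of later mesoderm, ectoderm and gut to 11.4, 8.90, 5.41 and 5.08 CPM with 8 of 16 at 0. The part of other cell types in the calls was not tested beyond these values.

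Hatching of IVF blastocysts, measured in the same fit, had far fewer calls. The IVF comparison had 0 genes called higher and 7 lower (0.0451% of those tested), with 594 genes at an unadjusted p under 0.05 and 51 called by DESeq2. For the 2228 genes called in vivo, the median size of the log2 fold change was 1.72 in vivo and 0.22 in IVF embryos. The difference of the 2 hatching changes, tested as an interaction, was called for 299 genes in the direction of a more positive change in vivo (1.93%) and for 433 in the other (2.79%), 4.71% in all. Of these, 295 and 428 were genes called higher and lower in vivo. Values of IVF groups below are means ± SD over 3 libraries.

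Of the 15 hypoblast genes, 3 had a hatching change that differed between the origins. GATA4 was at 15.3 ± 0.525 CPM in unhatched and 17.2 ± 3.12 CPM in hatched IVF blastocysts, and the difference of the hatching changes was 2.58 ± 0.51 (adjusted p = 0.0197). SOX17 was at 3.57 ± 1.55 and 2.60 ± 2.47 CPM (difference 4.54 ± 1.00, adjusted p = 0.0292). BMP2 was at 8.02 ± 2.42 CPM before and 1.02 ± 0.590 CPM after hatching of IVF embryos, without a call there (adjusted p = 0.272), and its difference was 8.11 ± 0.97 (adjusted p = 0.00225). Thus BMP2 was low before and higher after hatching in vivo, and had the opposite order of levels in IVF embryos. COL4A2 went from 4.83 ± 0.676 to 1.65 ± 0.602 CPM in IVF embryos (difference 5.99 ± 0.65, adjusted p = 0.00153). Of the 28 basement membrane genes, 4 had a called difference. The other hypoblast genes called higher in vivo, HHEX (adjusted p = 0.0504), PDGFRA (0.169) and RSPO3 (0.165), had none.

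Sterol genes were lower after hatching in both origins. Of the 20 genes, all had a negative hatching change in IVF embryos, with a median of -1.41 against -1.47 in vivo, and 1 had a called difference (SC5D, -1.40 ± 0.30, adjusted p = 0.0249). Genes called lower in IVF hatching included MSMO1, FDFT1, FDPS, HMGCS1, CYP51 and INSIG1. MSMO1 was at 528 ± 176 CPM before and 60.8 ± 16.5 CPM after IVF hatching, a fall of 3.12 ± 0.32 (adjusted p = 0.00292), and its difference from the in vivo change was 0.06 ± 0.47 (adjusted p = 0.976). INSIG1 went from 167 ± 41.0 to 22.0 ± 6.85 CPM (difference 0.08 ± 0.41, adjusted p = 0.949).

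Some antioxidant, serine, p53 and mitosis genes had changes in vivo that differed from those in IVF embryos. Of the 39 antioxidant genes, 10 had a called difference, all more negative in vivo, and the list's median was -0.70 in vivo and 0.21 in IVF embryos. MGST1 was at 410 ± 35.7 and 345 ± 48.8 CPM in unhatched and hatched IVF embryos (difference -2.85 ± 0.29, adjusted p = 0.00153). FTH1 was at 10401 ± 1609 and 12722 ± 1205 CPM (difference -2.78 ± 0.36, adjusted p = 0.00343), between the levels before and after hatching in vivo. TYMS was at 419 ± 25.8 and 421 ± 19 CPM (difference -2.40 ± 0.24, adjusted p = 0.00153), close to the level before hatching in vivo. PHGDH was at 160 ± 69.4 and 190 ± 47.6 CPM (difference -4.47 ± 0.60, adjusted p = 0.00431). CDKN1A was at 229 ± 30.6 and 229 ± 22.4 CPM (difference -3.04 ± 0.58, adjusted p = 0.0169), and 4 of the 29 p53 targets had a called difference. PLK1 was at 118 ± 14.1 and 130 ± 31.2 CPM (difference 2.09 ± 0.33, adjusted p = 0.00847), with 7 of the 43 mitosis genes called in that direction and 1 in the other, while the 43 replication genes had 2 called differences, near the 4.71% over all genes. The TCA cycle list had 7 of 26 genes with a more negative change in vivo. MSX2 stayed at 215 ± 45.4 and 206 ± 24.3 CPM (difference -2.12 ± 0.33, adjusted p = 0.00781), and DPPA5 was at 43.2 ± 10.5 and 22.3 ± 3.4 CPM (difference -2.42 ± 0.41, adjusted p = 0.0102).

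**Figure D5:**
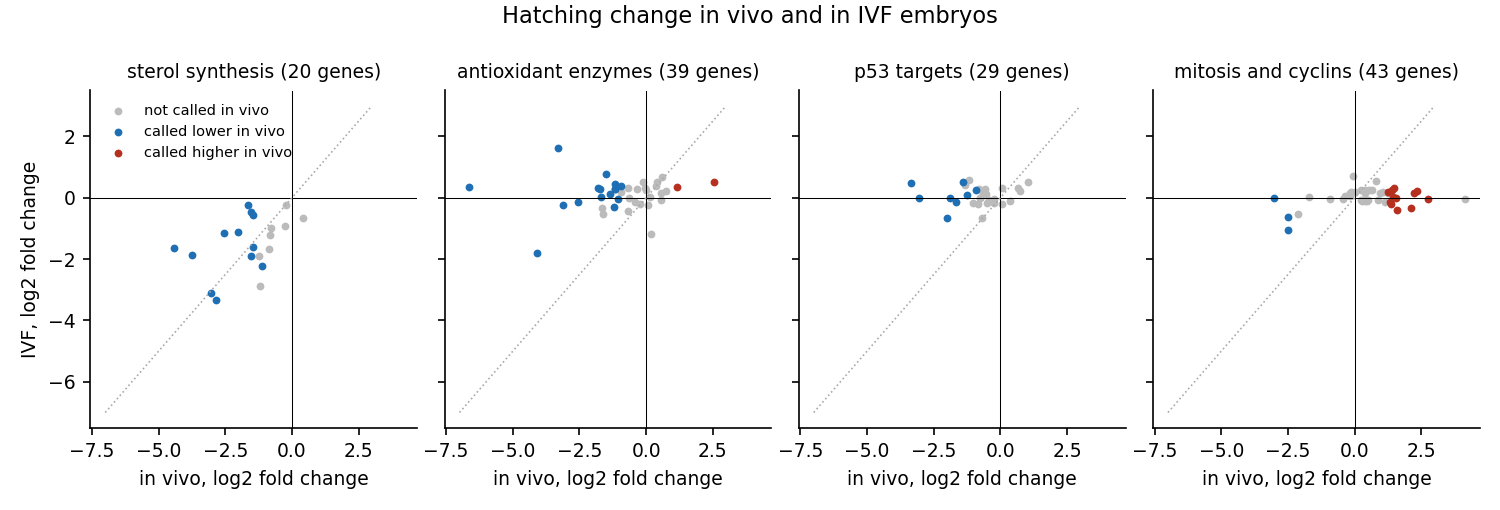
The hatching change of each list member in vivo (x axis) and in IVF embryos (y axis), both as log2 fold change of hatched over unhatched, for 4 gene lists, coloured by the call in vivo; the dotted line marks equal change. Sterol genes lie below 0 on the y axis for all 20 genes, whereas the called antioxidant, p53 and mitosis genes lie spread along the x axis with IVF changes mostly near 0.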

How the data were processed

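Messenger RNA from pools of pig preimplantation embryos was sequenced as paired-end reads after oligo(dT) enrichment, per the labels' protocols. Per the submitters' processing notes, the tools were fastp 0.18.0, StringTie 1.3.1, RSEM, HISAT2 and Bowtie2 on Sscrofa11.1, listed without role. The authors deposited read counts and TPM values per gene. The counts of 28232 genes, 28208 of them matched to RefSeq, were used for all tests, and the deposited TPM only for levels between genes and for gene length; 23 of 39 value columns (FPKM, and TPM of other libraries, the unnumbered one included) were not used here. The 4 in vivo and 6 IVF blastocyst libraries were fitted together in R 4.3.3 with edgeR 4.0.16 (low-count filter, TMM, quasi-likelihood test, Benjamini-Hochberg adjustment, threshold 0.05), with the difference of the 2 hatching changes as an interaction; the fit was tested on simulated data. Alternatives were DESeq2 1.42.0, RLE size factors, no filter, library sizes without mitochondrial genes, other sets of libraries and each library left out; DESeq2 on the in vivo libraries and removal of a length trend (an offset per library over 20 bins of gene length) were added after the data were seen. The members and the 59 gene lists were chosen with earlier results of these data known, so list counts are descriptions. Lists can share members, such as BMP2, CTSV, DNMT3B and SLC7A11, so their counts are not independent of each other. Named genes were those called with the largest fold changes at 5 CPM or more and groups apart (15 per direction, 6 for the difference), up to 5 called members of each list with the smallest p, the 10 called genes with the highest CPM, and 25 fixed lineage and hatching genes; the text describes a selection of them. Depth of 35110201 to 38854812 counts per in vivo library puts 3 counts near 0.08 CPM. Replicates within a group differed beyond counting noise (chi-square per degree of freedom 140 and 286). Some items are not reported here.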

Additional observations from a re-analysis of the deposited data

Results flagged for a closer look

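For 12 genes the hatching change in vivo differed from that in IVF embryos most, among those named by size; each difference was tested as an interaction with edgeR's quasi-likelihood test and Benjamini-Hochberg adjustment over all genes. Where a group has no or almost no counts, the fitted size depends on the prior count and is not a bound. A more positive change in vivo was fitted for IFITM3 (15.43 ± 3.55, adjusted p = 0.0379), ENTPD1 (13.79 ± 3.0, 0.0399), SOX21 (13.23 ± 2.60, 0.0217), SRPK3 (9.66 ± 2.06, 0.0256), FLRT3 (9.2 ± 1.92, 0.0235) and KCNE3 (8.16 ± 1.77, 0.0274). IFITM3, ENTPD1 and SOX21 had no counts in either in vivo blastocyst library. In the in vivo comparison, the call was lost without hatched library 2 for IFITM3 (adjusted p = 0.274), ENTPD1 (0.156), SOX21 (0.0675) and SRPK3 (0.0838). It was also lost without blastocyst library 1 for IFITM3 (0.124), ENTPD1 (0.055) and SRPK3 (0.109), without blastocyst library 2 (0.0933) or IVF hatched library 2 (0.0503) for IFITM3, and without the unnumbered library (0.125) or IVF blastocyst library 3 (0.0504) for SRPK3.

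A more negative change in vivo was fitted for PAG6 (-11.26 ± 2.15, adjusted p = 0.0196), CYP19A3 (-11.22 ± 2.51, 0.0344), ACTA1 (-7.70 ± 1.42, 0.0157), SLC7A11 (-6.98 ± 0.93, 0.00401), PKD2 (-6.44 ± 1.28, 0.0196) and CASQ2 (-5.99 ± 0.63, 0.00153). PAG6 and CYP19A3 had no counts in either in vivo hatched library. The in vivo call was lost without hatched library 2 for PKD2 (adjusted p = 0.0621) and CYP19A3 (0.0652).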

How the results depend on the processing

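With DESeq2, 1781 genes were called higher and 1781 lower after hatching in vivo, and the difference from IVF hatching was called for 890 and 989 genes. Without a filter on low counts, 1672 genes were called higher, and the difference for 908 and 947. On the in vivo libraries alone, 367 were called higher and 390 lower. With all 13 libraries, 37 were called higher and 64 lower, the higher share of calls was 36.6% against 48.5%, and the difference was called for 0 and 1 genes. Leaving out 1 library gave 451 to 1064 genes called higher and 531 to 1110 lower, and differences called for 127 to 506 and 195 to 527 genes. RLE size factors, library sizes without mitochondrial genes and removal of the length trend kept the in vivo counts within 1.5 times. The cause of these shifts was not tested. Of 254 named genes called in vivo, 118 kept the call in each fit without 1 library, 112 lost it on the in vivo libraries alone and 9 after removal of the length trend, and 0 reversed. No paired analysis was possible because 1 hatched column carries no replicate number, so the groups share fewer than 2 numbers; the planned fit with a replicate block was not run. Depth limits a gene with 0 counts to an upper level of about 0.08 CPM in a library.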

Other observations

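Of 32 heat shock genes, 6 were called higher and 3 lower after hatching in vivo (28.1% called). Among them was BAG3, a partner of HSP70, at 35.9 and 57.5 CPM before and 121 and 154 CPM after hatching (1.56 ± 0.29, adjusted p = 0.00575 by edgeR). In IVF embryos BAG3 was at 18.1 ± 1.18 and 16.1 ± 2.75 CPM (SD over 3 libraries). Of the heat shock list, 3 members were called higher without blastocyst library 1.

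Among imprinted growth genes, 1 of 18 was called higher and 4 lower, and 1 or 2 lower without blastocyst library 2 or 1. SLC22A18, an organic cation carrier, was at 10, 18.5, 0.822 and 1.27 CPM (-3.76 ± 0.53, adjusted p = 0.00181). IGF2BP1, an RNA-binding protein of growth, was at 83.5, 108, 279 and 279 CPM (1.54 ± 0.22, adjusted p = 0.00188). ITGB6, an integrin of epithelia, was at 2.93 and 1.9 CPM before hatching and had no counts after it, at least 30.2-fold lower (adjusted p = 0.00409). Of 563 genes tested on the X chromosome, 24 were called higher and 65 lower, against shares of 6.96% and 7.39% over all genes. Their median log2 fold change was -0.35. Long noncoding RNAs were called less often than genes as a whole. Of 1339 tested, 19 were called higher and 66 lower, 6.35% in all against 14.3% over all genes.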
